A study of Mus musculus with 6 samples.

Results

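Potassium channels let potassium leave or enter a cell through a selective pore, and so set the resting potential and end the action potential. The genes described here are the rows of the count table whose symbol starts with Kcn and that had at least 10 reads summed over 6 tumours, which gave 88 of the 98 such rows, in a table of 24421. The tumours were mouse neurofibromas, benign growths of the peripheral nerve sheath, from animals on a C57BL/6J background without drug treatment. In every tumour Nf1fl/fl was combined with DhhCre, a Cre recombinase driven by the promoter of the Schwann lineage gene Dhh, so Nf1, a brake on Ras, was removed in that lineage while other cells of the tumour kept it. In 3 tumours, MiRNC149, MiRNC640 and MiRNC670 (the Mir-155 KO group), miR-155 was knocked out as well. The other 3, Nf803, Nf809 and Nf827, are labelled Nf1 -/-. The labels give no age, and they do not say in which cells miR-155 was removed. Nor do they say whether tumours came from different animals, so the p-values, which treat the tumours as independent, may rest on fewer animals.

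Channel genes fall into families by how the pore opens. Voltage-gated channels open on depolarisation: in peripheral axons the Shaker family (Kcna) sits beneath the myelin next to the node of Ranvier, and the M-current genes (Kcnq) damp repetitive firing. Inward rectifiers (Kcnj) and two-pore channels (Kcnk) set the resting potential, in glia as well as neurons, and calcium-activated channels (Kcnm, Kcnn) couple potassium outflow to calcium in neurons, muscle and immune cells.

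Totals ran from 13061129 to 16333181 reads per tumour. Values below are CPM, read counts scaled to the TMM-adjusted size of each library. Tests are edgeR quasi-likelihood tests over all 15604 genes that passed a low-count filter, called at a Benjamini-Hochberg adjusted p under 0.05. The host transcript of miR-155, Mir155hg, had 5, 3 and 1 reads in the Mir-155 KO tumours and 57, 66 and 71 in the Nf1 -/- tumours. The Schwann lineage gene Sox10 was present in every tumour (333, 287 and 277 against 249, 215 and 263 CPM). Skeletal muscle genes set the tumours apart across the groups: the summed level of 11 markers was 21233 CPM in Nf809 and 13276 CPM in MiRNC670, against 102 to 2750.3 CPM in the other 4, and 3 of them had no read in at least 1 tumour.

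Many potassium channel genes were higher in the Mir-155 KO tumours. Of the 75 that passed the filter, 16 were called higher (21.3%, against 5.22% of all genes tested) and 2 lower (2.67%, against 4.74%). The 18 calls in either direction compare with 9.96% of all genes. Of the higher ones, 12 were voltage-gated pore subunits, the most abundant being Kcna1, Kcna2 and Kcna6, while the 2 lower ones were the calcium-activated channel genes Kcnma1 and Kcnn4. The median log2 fold change of the 75 was 1.05, against 0.01 over all genes tested, and 61 were above 0. Their CPM ranges did not overlap between groups in 31 members that were higher and 7 that were lower, together 50.7% against 32.6% of all genes tested (16.3% in each direction). In whole tumours, a difference in the number of cells of a type and in the RNA per cell cannot be told apart. A fit without the filter covered all 88 members, of which 70 had a positive log2 fold change.

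The number of calls moved with the tumour left out. No member was called by edgeR without MiRNC670, Nf803 or Nf827. In these fits 30 of 76, 29 of 77 and 32 of 78 tested members had an unadjusted p under 0.05. Over all genes tested the counts were 3240 of 16025, 3335 of 16072 and 3265 of 16056. Kcnma1 alone was called without MiRNC640, 4 higher and 3 lower without MiRNC149, and 25 higher and 2 lower without Nf809. In the fit without Nf809, 46 of 78 members and 4512 of 16020 genes had an unadjusted p under 0.05. DESeq2 on all 6 tumours called 32 higher and 4 lower, with all 18 edgeR calls among them. The 18 called members kept their direction in each of 14 alternative fits. Their calls held in fewer of them, from 5 of the 14 for Kcnh2 to 11 for Kcnma1. Kcna1, Kcnj16 and Kcnmb2 were each called in 6.

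**Figure D1:**
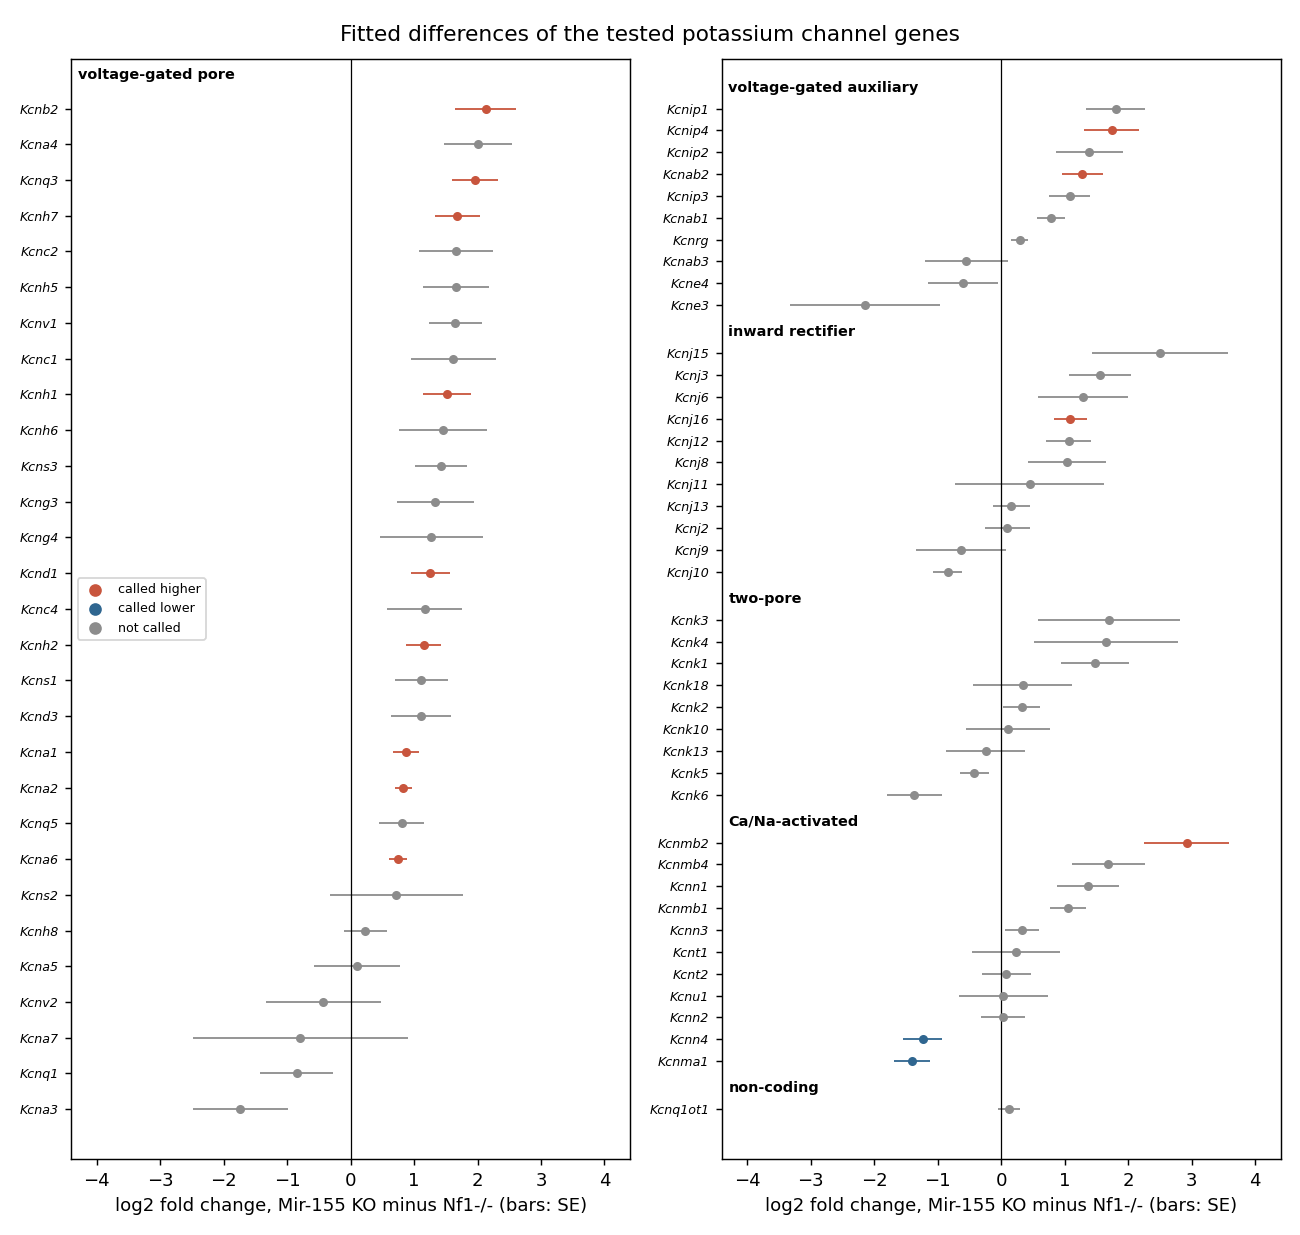
Log2 fold change between Mir-155 KO and Nf1 -/- tumours for 71 of the 75 tested potassium channel genes, with standard errors as bars, grouped by subfamily and coloured by call. The 9 called voltage-gated pore subunits drawn lie between 0.74 and 2.13, and the 2 genes called lower, Kcnn4 and Kcnma1, lie at -1.24 and -1.41.

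miR-155 lowers its targets through short sites in their 3′ UTRs, so the longest annotated 3′ UTR of each member was searched for its sites. The mature microRNA mmu-miR-155-5p, from RefSeq on GRCm38.p6, is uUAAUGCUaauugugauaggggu, with the seed (bases 2 to 8) in capitals. A site was AGCATTAA (the 8mer) or 1 of its 7-base parts AGCATTA and GCATTAA, read on the transcript strand only, with a 7-base part inside an 8mer not counted again. Of 74 tested members with a UTR, 17 held a site (23%) and 3 an 8mer. The share was 14.2% over all tested genes with a UTR and 15.5% over those whose UTR length lay within the interquartile range of the members. Median UTR lengths of the members and of these 2 sets were 1786, 1214 and 1744 bases. Of the 17 members with a site, 6 were called higher, among them Kcna1, Kcnb2, Kcnh7 and Kcnq3, and of the 57 without, 10 were called higher and 2 lower. Over all tested genes, 153 of 1989 with a site were called higher and 72 lower, and 612 and 632 of 12038 without. The median log2 fold change was 1.11 in members with a site and 1.05 in the 57 without. Sites not shown here were also held by Kcnj10, lower in every Mir-155 KO tumour without a call, and by Kcnj5, without a read in that group. Examples of where miR-155 could pair with a channel transcript are shown for Kcnh7, Kcnq3 and Kcna1, all called higher, and for Kcns2, not called. The site is in capitals, and its own position is given on GRCm38, the assembly of mm10. A match of letters is a description, not shown to be bound.
Kcnh7 (chr2:62695769-62695776, minus strand): tttttttaaaaAGCATTAAacctgaattta
Kcnq3 (chr15:65989502-65989509, minus strand): atactggaaggAGCATTAAgaatgtggttc
Kcna1 (chr6:126640725-126640731, minus strand): ttctcttagtcAGCATTAtggcctatttg
Kcns2 (chr15:34842380-34842387, plus strand): aaggtcccaggAGCATTAAgttcccccaag
The Kcnh7, Kcnq3 and Kcns2 lines hold the full 8mer, and the Kcna1 line holds AGCATTA. Kcnb2 held GCATTAA at 2 places of a 3′ UTR of 12121 bases. Kcns2 also held AGCATTA at another place of its 3′ UTR, not shown.

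Kcna1 and Kcna2, of the Shaker family, had the highest CPM of all members. Kcna1, Kcna2 and Kcna6 together took 68.6% to 80.1% of the reads of the protein-coding members in each tumour. Kcna1, a pore subunit of the channels beside the node (ENSMUSG00000047976.4, chromosome 6, 126640397 to 126646384), measured 4512, 3344 and 3099.5 CPM in MiRNC149, MiRNC640 and MiRNC670 and 2435, 1799.5 and 1722 CPM in Nf803, Nf809 and Nf827. All 3 Mir-155 KO tumours were above the highest Nf1 -/- tumour, and the group means were 3652 ± 755 and 1985 ± 391 CPM (SD, n = 3; log2 fold change 0.88, SE 0.21, adjusted p = 0.0408). Its neighbour Kcna6 (chromosome 6, 126708329 to 126740674) measured 329.6, 314 and 246 CPM in the Mir-155 KO tumours and 189, 167 and 177 CPM in the Nf1 -/- tumours, again without overlap between groups (log2 fold change 0.74, SE 0.14, adjusted p = 0.0266). Kcna2, the usual partner of Kcna1 in the same tetramers (ENSMUSG00000040724.5, chromosome 3, 107101146 to 107115005), measured 2717, 2684 and 2238 CPM in the Mir-155 KO tumours and 1367, 1458 and 1462 CPM in the Nf1 -/- tumours. Its group means were 2546 ± 268 and 1429 ± 53.5 CPM (SD, n = 3), and the difference had the smallest p of the 75 tested members (log2 fold change 0.83, SE 0.13, adjusted p = 0.0212). Per kilobase of annotated exon, the levels in Nf1 -/- tumours were 415 CPM for Kcna1, 120.04 for Kcna2 and 29.9 for Kcna6, and only Kcnj10 among the other members came above 29.9. The exons of Kcna6 overlap those of the opposite-strand gene Gm26673 over 2355 bases, and with the strand setting unknown their reads cannot be told apart.

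No other Shaker gene was called by edgeR on all 6 tumours. Kcna4 was called by DESeq2 and by edgeR without Nf809, and Kcna3 by edgeR without MiRNC149. Kcna4, which makes fast inactivating currents in thin sensory fibres, measured 9.34, 10.9 and 17.4 CPM in the Mir-155 KO tumours and 2.54, 5.5 and 1.27 CPM in the Nf1 -/- tumours. The groups did not overlap, and the difference missed the threshold (log2 fold change 2.01, SE 0.54, adjusted p = 0.0586). Kcna3, the channel of T cells and macrophages, lies 63.1 kb from Kcna2 on chromosome 3 and was chosen for mention after its values were seen. It ran the other way, at 1.93, 0.473 and 0.238 CPM in the Mir-155 KO tumours and 2.83, 2.16 and 4.02 CPM in the Nf1 -/- tumours, with no overlap but a wide error (log2 fold change -1.74, SE 0.75, adjusted p = 0.191). Kcna7, of skeletal muscle and heart and likewise named after its values were seen, was at 10.01 CPM in Nf809 and 4.59 CPM in MiRNC670, the tumours with the most muscle transcripts, and at or under 0.878 CPM in the other 4. Kcna5 overlapped between groups (log2 fold change 0.11, SE 0.68). Kcna10 had 1, 8 and 5 reads in the Mir-155 KO tumours and 0 in the Nf1 -/- tumours, at least 4.88-fold higher against a floor of 3 reads over the group. Intervals and floors cover counting error only.

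**Figure D2:**
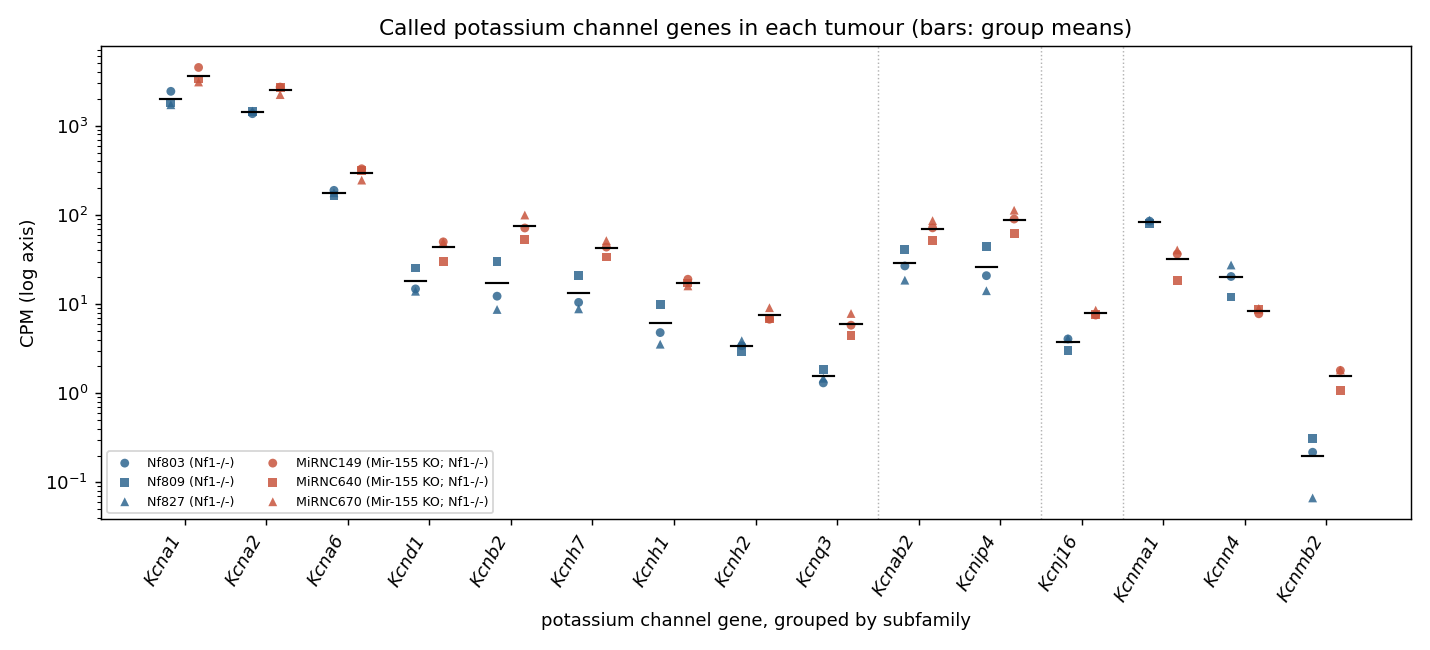
CPM of 15 of the 18 called potassium channel genes in each of the 6 tumours on a log axis, with bars for the group means of 3 tumours. The groups do not overlap in any of the 15, and among the voltage-gated genes below 100 CPM in Nf1 -/- tumours Nf809 (blue squares) is in most cases the nearest to the Mir-155 KO tumours, as for Kcnb2 at 30.4 CPM.

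The delayed rectifier gene Kcnb2, of the Shab family (chromosome 1, 15287254 to 15723750), measured 71.4, 53.3 and 99.8 CPM in MiRNC149, MiRNC640 and MiRNC670 and 12.3, 30.4 and 8.7 CPM in Nf803, Nf809 and Nf827. Nf809 was the highest Nf1 -/- tumour and still lay under every Mir-155 KO tumour. The group means were 74.8 ± 23.4 and 17.1 ± 11.6 CPM (SD, n = 3), a 4.37-fold difference and the largest log2 fold change of the called pore subunits (log2 fold change 2.13, SE 0.48, adjusted p = 0.0388). Subunits that form no channel alone but join Shab subunits had log2 fold changes above 0 without a call: Kcnv1 at 1.65 (adjusted p = 0.0514), Kcns3 at 1.43 (0.0694), Kcns1 at 1.11 (0.137), Kcng3 at 1.34 (0.213) and Kcng4 at 1.27 (0.373). Kcns2 and Kcnv2 were scarce and not called, Kcns2 at 0.72 (SE 1.05) and Kcnv2 at -0.43 (SE 0.91) on the log2 scale. Kcnf1, Kcng1 and Kcng2 did not pass the low-count filter.

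Kcnq3, an M-current subunit found at nodes and axon initial segments (chromosome 15, 65986387 to 66286642), rose as well. It measured 5.79, 4.46 and 7.84 CPM in the Mir-155 KO tumours and 1.31, 1.85 and 1.47 CPM in the Nf1 -/- tumours, and its Nf1 -/- tumours were close to each other (log2 fold change 1.96, SE 0.36, adjusted p = 0.0261). Kcnq5, also an M-current gene, was not called (log2 fold change 0.81, SE 0.35), and neither was Kcnq1, a channel of epithelia and heart (-0.85, SE 0.58). Kcnq1 was scarce, at 0.644, 0.608 and 0.396 CPM in the Mir-155 KO tumours and 0.726, 0.742 and 1.54 CPM in the Nf1 -/- tumours, and it shares exon sequence with the antisense RNA Kcnq1ot1, an imprinted transcript that silences neighbouring genes. Kcnq1ot1 itself was abundant and overlapped between groups, at 677, 574 and 709 CPM in the Mir-155 KO tumours and 584, 739 and 483 CPM in the Nf1 -/- tumours (log2 fold change 0.12, SE 0.18).

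Ether-a-go-go genes gave 3 further calls. Kcnh7, an ether-a-go-go-related gene of neurons (chromosome 2, 62693414 to 63184287), measured 43.6, 33.7 and 51.6 CPM in the Mir-155 KO tumours and 10.5, 20.8 and 8.84 CPM in the Nf1 -/- tumours (log2 fold change 1.68, SE 0.35, adjusted p = 0.0314). Kcnh2, the related gene best known from cardiac repolarisation, measured 6.76, 6.96 and 9.11 CPM in the Mir-155 KO tumours and 3.41, 2.97 and 3.88 CPM in the Nf1 -/- tumours (log2 fold change 1.15, SE 0.28, adjusted p = 0.0444), and its Nf1 -/- values held within 1 CPM of each other. Kcnh1, the founding ether-a-go-go gene of mammals, measured 19, 17.2 and 16 CPM in the Mir-155 KO tumours and 4.79, 9.89 and 3.55 CPM in the Nf1 -/- tumours (log2 fold change 1.51, SE 0.38, adjusted p = 0.0493). Kcnh5 and Kcnh6 were at log2 fold changes of 1.66 and 1.46 and were not called, and Kcnh8, at 24.9, 31.7 and 41.6 CPM in the Mir-155 KO tumours and 34.5, 15.5 and 33.7 CPM in the Nf1 -/- tumours, overlapped between groups. Of the Shaw genes, which serve fast firing, Kcnc2 and Kcnc4 were not called (log2 fold changes 1.66 and 1.17, adjusted p = 0.12 and 0.259). Kcnc1 was not called either. It measured 31.1, 44 and 53.4 CPM in the Mir-155 KO tumours and 4.94, 30.5 and 6.36 CPM in the Nf1 -/- tumours, with Nf809 close to MiRNC149 (adjusted p = 0.177, and 0.00514 without Nf809, within a range of 0.00514 to 0.371 over 14 alternatives).

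The A-type channels of the Shal family and their partners followed the same direction. Kcnd1 (chromosome X, 7822289 to 7838280) measured 49.9, 30.1 and 49.5 CPM in the Mir-155 KO tumours and 14.8, 25.4 and 13.9 CPM in the Nf1 -/- tumours (log2 fold change 1.26, SE 0.31, adjusted p = 0.0456). The more abundant Kcnd3 overlapped between groups at 104, 65.2 and 98.1 CPM in the Mir-155 KO tumours and 40.4, 68.1 and 15.5 CPM in the Nf1 -/- tumours (adjusted p = 0.193). Kcnd2 had 3 to 11 reads in each tumour and was not tested. Kcnip genes encode the calcium-binding subunits that carry Shal channels to the surface. Kcnip4 (chromosome 5, 48389502 to 49524907) measured 89.9, 61.3 and 113 CPM in the Mir-155 KO tumours and 20.8, 44.1 and 14.1 CPM in the Nf1 -/- tumours and was called (log2 fold change 1.74, SE 0.43, adjusted p = 0.0485). Kcnip3, which can also act as a transcriptional repressor, was at 141, 80.7 and 142 CPM in the Mir-155 KO tumours and 40.5, 83.1 and 49.1 CPM in the Nf1 -/- tumours without a call (log2 fold change 1.08, SE 0.32, adjusted p = 0.0806). Kcnip1 (log2 fold change 1.80, adjusted p = 0.0547) and Kcnip2 (1.39, 0.143) also lay above 0. The non-Kcn partners of Shal channels, Dpp6 and Dpp10, rose as well, by 1.79 (SE 0.39) and 2.35 (SE 0.56) on the log2 scale.

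Beta and other auxiliary subunits split. Kcnab2, the cytoplasmic beta subunit that helps place Shaker channels on axons (chromosome 4, 152390742 to 152477871), measured 71.7, 51.7 and 86.4 CPM in the Mir-155 KO tumours and 26.8, 41.2 and 18.5 CPM in the Nf1 -/- tumours and was called (log2 fold change 1.28, SE 0.32, adjusted p = 0.0492). Kcnab1 measured 33.6, 33.7 and 37.5 CPM in the Mir-155 KO tumours and 23.7, 23.1 and 14.3 CPM in the Nf1 -/- tumours, without overlap between groups, and missed the threshold (adjusted p = 0.0693). Kcnrg, a soluble regulator named for its channel-like domain, varied little, from 38 to 52.5 CPM. Kcnab3 and the small membrane subunits Kcne3 and Kcne4 had negative log2 fold changes of -0.55 (SE 0.66), -2.15 (SE 1.18) and -0.60 (SE 0.55). Of these, Kcne3 stood at 4.95 CPM in Nf827 and at most 1.16 CPM in any other tumour. In all, 2 of 10 tested auxiliary genes were called higher (20%), with a median log2 fold change of 0.93. Of the pore subunits, 12 of 33 were called higher (36.4%), with a median of 1.26. Over all genes tested the share called higher was 5.22%.

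**Figure D3:**
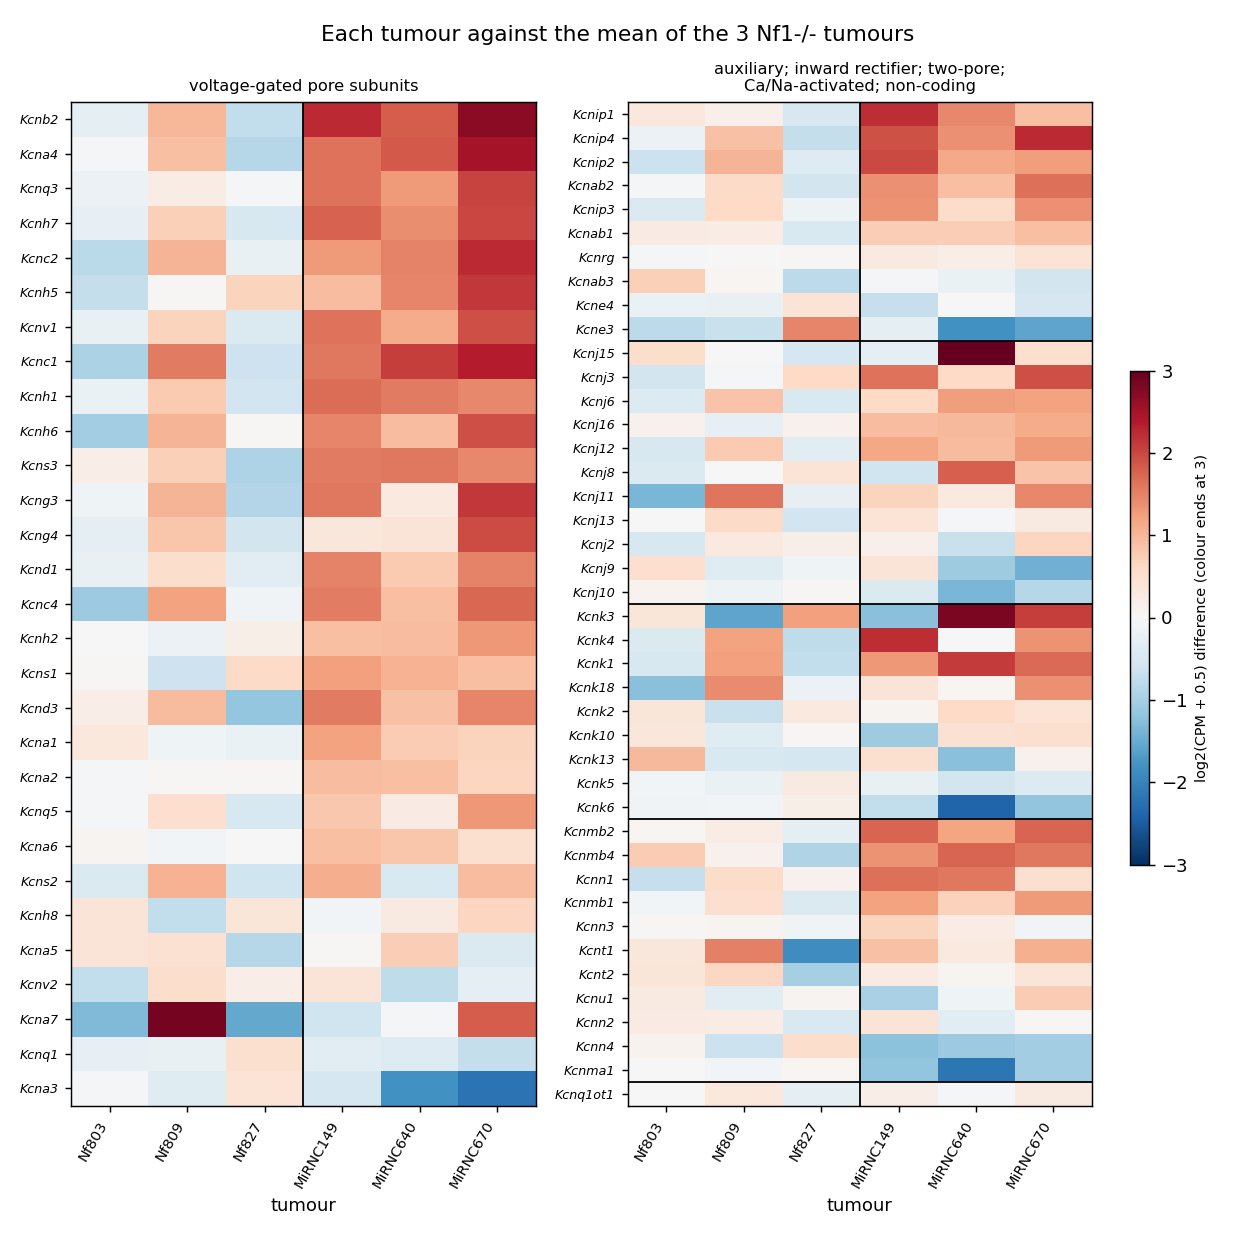
Difference of each tumour from the mean of the 3 Nf1 -/- tumours, in log2(CPM + 0.5), for 71 of the 75 tested potassium channel genes (rows) and 6 tumours (columns), with voltage-gated pore subunits on the left. Most pore subunits are higher in all 3 Mir-155 KO tumours and to a lesser degree in Nf809. The rows for Kcna1, Kcna2 and Kcna6, and some others such as Kcnh2 and Kcns1, show no such rise in Nf809.

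Among the Nf1 -/- tumours, 1 stood nearest to the Mir-155 KO tumours for most voltage-gated genes. Nf809 was the highest of the 3 for 24 of 33 pore subunits (72.7%), against 38% of all genes tested. MiRNC670 was the highest Mir-155 KO tumour for 20 of the 33, against 5285 of all 15604 genes tested. The median pore subunit of Nf809 lay 0.68 log2 units above the Nf1 -/- mean, between Nf803 (-0.20) and Nf827 (-0.43) on one side and the Mir-155 KO tumours (0.91 to 1.48) on the other. Markers of sensory neurons moved alongside, with 12 of 18 called higher. Their summed level was 6109 to 9869 CPM in the Mir-155 KO tumours and 1538 to 3151 CPM in the Nf1 -/- tumours, and none was at 0 in any tumour. Their mean in Nf809 was 0.76 log2 units above the Nf1 -/- mean. The part of neuronal RNA in the channel result was not tested.

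Kcna1, Kcna2 and Kcna6 did not share that order. In Nf809 they stood at -0.12, 0.03 and -0.09 log2 units from the Nf1 -/- mean, where the neuron markers stood at 0.76. They were not alone among pore subunits, as Kcnh2 (-0.17), Kcns1 (-0.62) and Kcnh5 (0.04) showed no clear rise in Nf809 either. In the Mir-155 KO tumours Kcna1, Kcna2 and Kcna6 were 0.47 to 1.202 above the Nf1 -/- mean, where the neuron markers were 1.35 to 2.08 above. MiRNC670, the highest tumour for neuron markers, was the lowest Mir-155 KO tumour for all 3 genes. Markers of myelinating Schwann cells, 10 of 14 called higher, also showed no rise in Nf809 (-0.03) but were highest in MiRNC640 (1.74), whereas Kcna1 was highest in MiRNC149. Schwann lineage markers as a whole, with 2 of 9 called higher and summed levels of 4312 to 5460.5 and 3768 to 4241 CPM, were highest in MiRNC149 (0.71), as was Kcna1. Among the Nf1 -/- tumours they were highest in Nf809 (0.085), whereas Kcna1 was highest in Nf803 (0.31). The part of these cells in the Shaker result was not tested.

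**Figure D4:**
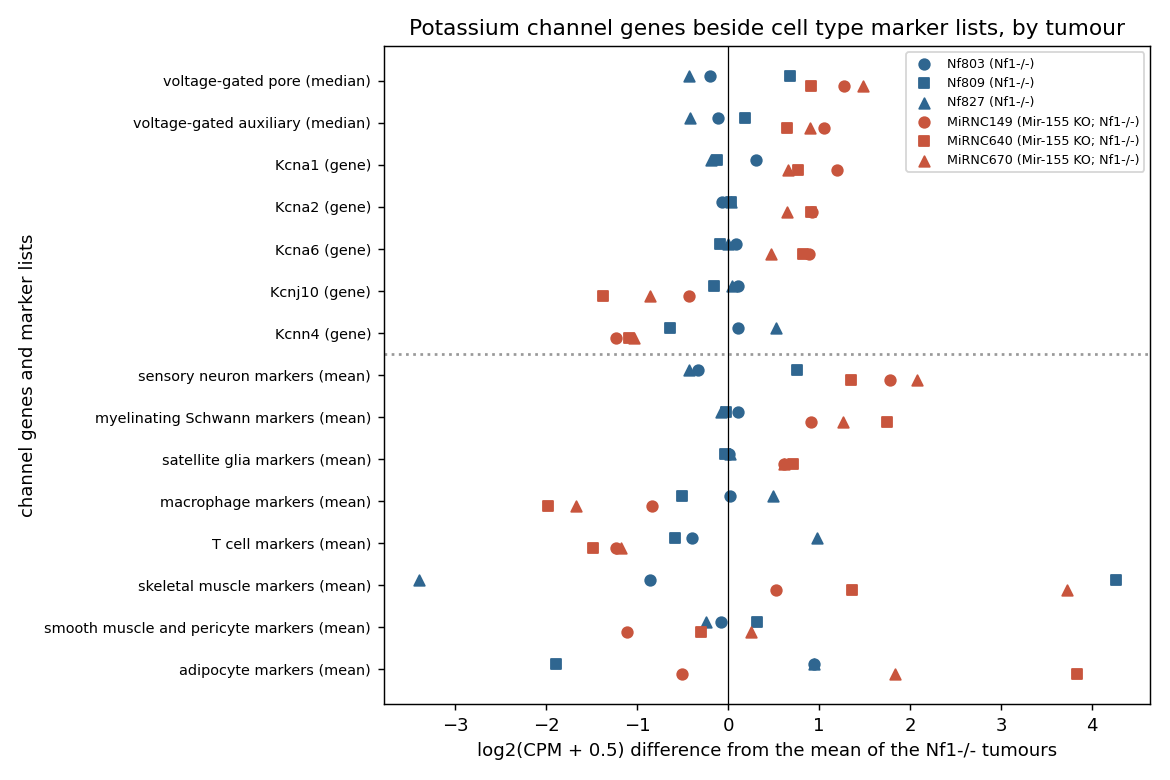
Difference of each tumour from the mean of the 3 Nf1 -/- tumours, in log2(CPM + 0.5), for channel subfamilies and single channel genes (above the dotted line) and cell type marker lists (below it). Nf809 (blue squares) is raised at 0.68 for the pore subunits and 0.76 for neuron markers, and lies at 0.03 for Kcna2.

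Inward rectifiers were mixed, with 1 call among 11 tested (9.09%, against 9.96% of all genes tested). Kcnj16, which pairs with Kcnj10 in glia and epithelia (chromosome 11, 110968033 to 111027968), measured 7.53, 7.7 and 8.55 CPM in the Mir-155 KO tumours and 4.06, 3.03 and 4.08 CPM in the Nf1 -/- tumours and rose 2.13-fold (log2 fold change 1.09, SE 0.26, adjusted p = 0.0442). Kcnj10, the chief glial rectifier and that of satellite cells in sensory ganglia (ENSMUSG00000044708.5, chromosome 1, 172341210 to 172374085), went the other way. It measured 322, 168 and 238 CPM in MiRNC149, MiRNC640 and MiRNC670 and 469, 390.3 and 445 CPM in Nf803, Nf809 and Nf827, so every Mir-155 KO tumour was below every Nf1 -/- tumour. The difference missed the threshold (log2 fold change -0.84, SE 0.23, adjusted p = 0.0616). DESeq2 called it (adjusted p = 0.00686), within a range of 0.00686 to 0.165 over 14 alternatives. Satellite glia markers, 2 of 5 called higher, had a median log2 fold change of 0.78 and ran from -0.43 (Apoe) to 1.77 (Fabp7). The part of these cells in the Kcnj10 values was not tested. Per kilobase of exon Kcnj10 was the third most abundant member in the Nf1 -/- tumours, at 80.4 CPM, and its mean was 44.9 CPM in the Mir-155 KO tumours.

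Other rectifiers were not called. Kcnj3, a subunit of the channels that G proteins open, measured 9.66, 4.46 and 12 CPM in the Mir-155 KO tumours and 1.74, 2.66 and 4.49 CPM in the Nf1 -/- tumours (log2 fold change 1.55, SE 0.49, adjusted p = 0.0925). Kcnj12, a strong rectifier, measured 23.6, 20.3 and 25.7 CPM in the Mir-155 KO tumours and 7.26, 17.9 and 8.17 CPM in the Nf1 -/- tumours, without overlap (log2 fold change 1.06, SE 0.36, adjusted p = 0.106). The exons of Kcnj3 overlap the opposite-strand gene Gm26794 over 1621 bases. Kcnj2, another strong rectifier and next to Kcnj10 in CPM, overlapped between groups at 50.2, 28.1 and 70.8 CPM in the Mir-155 KO tumours and 32.4, 55.6 and 51.2 CPM in the Nf1 -/- tumours. Kcnj15 was chosen for mention after its values were seen: it stood at 105 CPM in MiRNC640 and at 4.62 to 10.02 CPM in the other 5 tumours. Its log2 fold change of 2.497 (SE 1.07) rests on that tumour and was 0.08 without it. Kcnj15 lies 10.5 Mb from Mir155hg on chromosome 16. Kcnj5, another G protein-gated subunit, had 28, 8 and 0 reads in Nf803, Nf809 and Nf827 and 0 in all Mir-155 KO tumours, at least 11.5-fold lower against a floor of 3 reads over the group, without a test and with most reads from Nf803. The rectifier subunits of the ATP-sensitive channel, Kcnj8 of vessel walls and Kcnj11 of muscle, were not called: Kcnj8 was at 1.03 (SE 0.61) and Kcnj11 at 0.45 (SE 1.17) on the log2 scale. The same held for the G protein-gated subunits Kcnj6 (1.29, SE 0.71) and Kcnj9 (-0.64, SE 0.71) and for Kcnj13, a rectifier of epithelia (0.16, SE 0.30). Of the 1270 exon bases of Kcnj13, 623 overlap the opposite-strand gene Gigyf2, so its reads may include those of Gigyf2. Kcnj11 was highest in Nf809 (3.46 CPM) and MiRNC670 (3.01 CPM), as the muscle markers were.

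Two-pore channel genes gave no call by edgeR among 9 tested. An unadjusted p under 0.05 was seen in 2 of the 9, against 4163 of all 15604 genes tested. DESeq2 called 2, Kcnk1 and Kcnk6. Kcnk1, a weak background channel, measured 39.3, 68.3 and 51.9 CPM in the Mir-155 KO tumours and 11, 37.2 and 9.04 CPM in the Nf1 -/- tumours. Nf809 was just under the lowest Mir-155 KO tumour, and Nf803 and Nf827 were low (log2 fold change 1.48, SE 0.54, adjusted p = 0.132). Without Nf809 it was called (adjusted p = 0.0057), within a range of 0.0057 to 0.32 over 14 alternatives. Kcnk6, a background channel found in macrophages, was lower in every Mir-155 KO tumour, at 8.18, 2.23 and 5.94 CPM in the Mir-155 KO tumours and 13, 13.2 and 16 CPM in the Nf1 -/- tumours (log2 fold change -1.37, SE 0.44, adjusted p = 0.0947). Kcnk5 measured 9.14, 7.23 and 7.9995 CPM in the Mir-155 KO tumours and 10.2, 9.4 and 13.1 CPM in the Nf1 -/- tumours, with the groups close to each other (adjusted p = 0.29). Kcnk2, a channel opened by stretch and heat, overlapped between groups at 21.1, 30.2 and 26.6 CPM in the Mir-155 KO tumours and 25.8, 12.4 and 24.3 CPM in the Nf1 -/- tumours.

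Kcnk3, an acid-sensitive channel also found in brown fat, measured 0.837, 21.9 and 12.9 CPM in MiRNC149, MiRNC640 and MiRNC670 and 3.56, 0.556 and 6.9 CPM in Nf803, Nf809 and Nf827. The groups overlapped (log2 fold change 1.69, SE 1.12, adjusted p = 0.387). The adipocyte gene Adipoq was highest and lowest in the same tumours as Kcnk3, at 10.8, 201 and 52.2 CPM in the Mir-155 KO tumours and 28.5, 2.6 and 27.2 CPM in the Nf1 -/- tumours. The summed level of 5 adipocyte markers, 1 of which had no read in at least 1 tumour, was 80.7 to 1937 and 29.1 to 296 CPM, and the part of fat in the Kcnk3 values was not tested. Kcnk18, of pain-sensing neurons, and Kcnk13, of microglia and macrophages, also overlapped between groups (log2 fold changes 0.34 and -0.24). Kcnk4 and Kcnk10 were not called either (1.65 and 0.10), and the median of the family was 0.32.

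Calcium-activated channel genes held both calls in the lower direction. Kcnma1, the pore of the large-conductance channel of smooth muscle, neurons and other cells (ENSMUSG00000063142.15, chromosome 14, 23289431 to 24014491), measured 36.4, 18.2 and 40.5 CPM in MiRNC149, MiRNC640 and MiRNC670 and 85.2, 79.6 and 87.2 CPM in Nf803, Nf809 and Nf827. The Nf1 -/- tumours were nearly equal, at 84 ± 3.95 CPM (SD, n = 3), and the Mir-155 KO tumours lay at 31.7 ± 11.8 CPM, with MiRNC640 lowest (log2 fold change -1.41, SE 0.28, adjusted p = 0.0299). Its exons overlap the opposite-strand gene 4930519K11Rik over 1016 bases. The beta subunits of the same channel did not follow it. Kcnmb2, which makes the channel inactivate, was at 1.8, 1.08 and 1.82 CPM in the Mir-155 KO tumours and 0.218, 0.309 and 0.067 CPM in the Nf1 -/- tumours and rose (log2 fold change 2.92, SE 0.67, adjusted p = 0.0392). That call rests on 67 reads in the Mir-155 KO tumours and 9 in the Nf1 -/- tumours (scaled ratio of pooled reads 7.78, 95% exact binomial interval 3.86 to 17.7). Kcnmb1, the smooth muscle beta subunit, measured 30.5, 21.4 and 32.1 CPM in the Mir-155 KO tumours and 12.3, 18.5 and 9.57 CPM in the Nf1 -/- tumours without overlap (adjusted p = 0.0608). Kcnmb4, the neuronal one, had a log2 fold change of 1.69 (adjusted p = 0.111). The 9 markers of smooth muscle and pericytes had overlapping summed levels of 298 to 566 and 466 to 609.6 CPM in the Mir-155 KO and Nf1 -/- tumours. Fibroblast markers, 3 of 6 called lower, had summed levels of 4695 to 6043 and 9831 to 10516 CPM. The part of either cell type in the Kcnma1 result was not tested.

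Kcnn4, the intermediate-conductance channel of T cells and macrophages (chromosome 7, 24370263 to 24386690), measured 7.79, 8.65 and 8.95 CPM in MiRNC149, MiRNC640 and MiRNC670 and 20.4, 12 and 27.5 CPM in Nf803, Nf809 and Nf827. The Mir-155 KO tumours lay within 2 CPM of each other and under Nf809, the lowest Nf1 -/- tumour (log2 fold change -1.24, SE 0.31, adjusted p = 0.0485). Macrophage markers, 6 of 13 called lower, had summed levels of 581 to 1241 CPM in the Mir-155 KO tumours and 1561 to 2809 CPM in the Nf1 -/- tumours. Of the 8 T cell markers, 6 were tested and 0 called. Their summed levels were 6.35 to 9.03 and 15.8 to 61.2 CPM, with Nf827 highest as it was for Kcnn4 and Kcna3. None of these markers was at 0 in any tumour, and their part in the Kcnn4, Kcna3 and Kcnk6 values was not tested. The small-conductance genes of neurons and muscle, Kcnn1, Kcnn2 and Kcnn3, were not called (log2 fold changes 1.37, 0.03 and 0.32). Neither were the sodium-activated Kcnt1 and Kcnt2 nor the sperm channel gene Kcnu1, and Kcnt1 ranged from 8.77 to 95.3 CPM within the Nf1 -/- tumours alone.

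Proteins that cluster, anchor or modulate potassium channels were taken as a list of 32 genes outside the Kcn symbols. Of 29 tested, 12 were called higher (5.22% of all genes were), with a median log2 fold change of 0.79. At the juxtaparanode, where Shaker channels gather, the adhesion gene Cntnap2 measured 60.3, 46.9 and 70.9 CPM in the Mir-155 KO tumours and 14.4, 23.1 and 11.6 CPM in the Nf1 -/- tumours and rose by 1.85 on the log2 scale (SE 0.29). Adam22 rose by 1.10 (SE 0.27). Cntn2, the axonal and glial partner of Cntnap2, measured 39.1, 29.99 and 45.1 CPM in the Mir-155 KO tumours and 6.75, 29.2 and 7.3 CPM in the Nf1 -/- tumours and was not called, with Nf809 near the Mir-155 KO tumours. Lgi1, the secreted ligand of Adam22, gave the smallest p of the list, at 60.005, 70.6 and 70.9 CPM in the Mir-155 KO tumours and 29.1, 27.8 and 27.1 CPM in the Nf1 -/- tumours (log2 fold change 1.26, SE 0.14, adjusted p = 0.0186), and here Nf809 did not stand apart. The scaffold gene Dlg4 overlapped between groups, at 31.3, 23.3 and 37.4 CPM in the Mir-155 KO tumours and 24, 33.5 and 34.4 CPM in the Nf1 -/- tumours. Ank3, which anchors channels at nodes, did not overlap between groups but was not called, from 714 to 764 CPM in Nf1 -/- and 881 to 986 CPM in Mir-155 KO tumours (adjusted p = 0.0945).

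Pacemaker channel genes, which share the fold of voltage-gated potassium channels but pass sodium as well, were among the partners. The scarce Hcn3 measured 3.86, 2.84 and 9.43 CPM in the Mir-155 KO tumours and 1.16, 0.865 and 0.67 CPM in the Nf1 -/- tumours and rose (log2 fold change 2.57, SE 0.57, adjusted p = 0.0364). So did Pex5l, the adaptor that sets how many pacemaker channels reach the membrane (log2 fold change 0.79, SE 0.15, adjusted p = 0.0273). Hcn2 and Hcn4 were not called (log2 fold changes 1.16 and -0.12). Calm2, which encodes calmodulin, the calcium sensor of Kcnq and Kcnn channels and of much else, rose by 0.60 (SE 0.15), and Nedd4l, a ubiquitin ligase that removes channels from the membrane, by 0.69 (SE 0.14). Abcc9, the vascular partner of Kcnj8, overlapped between groups at 34.4, 81.8 and 93.7 CPM in the Mir-155 KO tumours and 42.9, 92.7 and 55.1 CPM in the Nf1 -/- tumours. Abcc8, also a subunit of ATP-sensitive channels, was scarce (log2 fold change 2.41, adjusted p = 0.124).

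The other 13 members did not pass the low-count filter and have no test. They were Kcna10, Kcnd2, Kcnd3os, Kcne2, Kcnf1, Kcng1, Kcng2, Kcnh4, Kcnj4, Kcnj5, Kcnj14, Kcnk7 and Kcnk12, each with 10 to 51 reads in all. Kcnf1 had 8, 16 and 16 reads in the Mir-155 KO tumours and 3, 3 and 5 in the Nf1 -/- tumours (scaled ratio of pooled reads 3.8, 95% exact binomial interval 1.91 to 8.21). Kcne2, 7.58 Mb from Mir155hg, had 12, 7 and 0 reads in MiRNC149, MiRNC640 and MiRNC670 and 1 read in all of Nf1 -/-. The members nearest the threshold of 10 reads were Kcnj4 with 10 and Kcnd3os with 11 inside it, and Kcne1l with 8 and Kcnk16 with 6 outside it.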

How the data were processed

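RNA from 3 tumours per genotype was sequenced; per the labels' protocols an RNeasy Plus Micro kit served for extraction and Nextera XT for libraries. The authors deposited 1 table of raw read counts per gene symbol, with a column per tumour. The submitters' processing notes name mm10, featureCounts 1.5.2 and HISAT2 2.0.5. The sources used here do not give the annotation, strand setting or treatment of multi-mapping reads, so reads of overlapping genes and close paralogs are uncertain. Tumour numbers in the titles pair no samples.

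Counts of all 24421 symbols (4229 without a read) were fitted with edgeR 4.0.16 in R 4.3.3: filterByExpr (minimum count 10, minimum total 15), TMM, group as the only term, two-sided quasi-likelihood test, Benjamini-Hochberg over 15604 genes. Standard errors are those implied by the F statistic. The fit was tested on simulated data. Log2 deviations used log2(CPM + 0.5). Replicate tumours differed by at least 23.2 times the Poisson variance, so none was counted as a repeat. Exon lengths and positions (88 of 88 members) and 3′ UTRs came from GENCODE M21 on GRCm38.

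Subfamilies follow the symbol. Some of the counted genes are not reported here by name. Named in each subfamily were the called members (up to 12), others by smallest p up to 4, and the 2 with the highest mean CPM; other genes described are outside that rule and were picked by family or after their values were seen. Members, lists and rules were chosen with earlier results of these data known. Alternatives were DESeq2 1.42.0, limma 3.58.1 voom, other scalings and filters, robust edgeR and leaving out tumours.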

Additional observations from a re-analysis of the deposited data

How the results depend on the processing

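All 18 calls kept their direction in 14 alternative fits, while counts of calls moved with the test and the tumours. DESeq2 called 32 members higher and 4 lower (1489 and 1473 of all genes), with 6 auxiliary, 4 inward rectifier, 2 two-pore and 6 calcium- or sodium-activated members; the pore subunits, 18, stayed within 1.5 times of 12. With limma voom 1 member was called lower, and 1 of the calcium- or sodium-activated genes was called. Upper quartile scaling left 1 auxiliary call, robust edgeR 0, and the unfiltered fit 0 inward rectifier calls. Without MiRNC670 and Nf809, 1 two-pore gene was called.

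Leaving out 1 tumour gave 0 to 25 members called higher and 0 to 3 lower, and 0 to 1183 genes called higher and 0 to 1059 lower of all. Per subfamily the ranges were 0 to 17 pore, 0 to 4 auxiliary, 0 to 1 inward rectifier, 0 to 1 two-pore and 0 to 4 calcium- or sodium-activated calls. These fits have fewer samples. The unfiltered median of inward rectifiers was 0.74 (1.03 with the filter), and 3 members held a site when only the 8mer was counted. Members under about 1 CPM are limited by depth.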
